A study of Mus musculus with 8 samples.

Results

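The genes described here were 8 mouse enzyme genes of glutamine, asparagine and proline metabolism, namely Glul, Glud1, Got1, Got2, Gpt2, Asns, Aldh18a1 and Pycr1. They were taken by symbol from a table of 56748 genes, and all 8 symbols were found as single rows of protein-coding genes. Poly-A RNA was sequenced from 32D cells, an interleukin-3 (IL-3) dependent mouse bone marrow line, and levels were deposited as FPKM, the fragments on a gene scaled by its length and by the size of the library. The 4 groups were Jak2WT cells with intact transporters (GLUT1/3 WT), Jak2WT cells with Slc2a1 and Slc2a3 disrupted by CRISPR-Cas9 (double knockout, dKO), Jak2V617F GLUT1/3 WT cells and Jak2V617F dKO cells, with 2 clones, numbered 1 and 3, in each. All groups carried a transduced murine Jak2, either wild type or with the activating V617F change of myeloproliferative neoplasms, and were kept for 24 h in 5 mM glucose and 1 mM glutamine with 2 ng/ml IL-3. Each library came from a clone grown from a single cell, so a difference between genotypes and one between the clones carrying them cannot be told apart. The authors list the same size of Slc2a1 deletion for all dKO clones of a background. Whether these clones arose independently cannot be told, so the spread of 2 clones a group may leave out part of that difference. An exact two-sided permutation test of 2 against 2 clones cannot give a p below 0.333, so tests came from a limma fit across all genes, with adjusted p under 0.05 as the threshold.

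The targeted genes had lower transcript levels in dKO clones, although gene-level FPKM does not show the edits themselves. Slc2a1, encoding GLUT1, was at 44.7 and 48.4 FPKM in Jak2WT GLUT1/3 WT and at 9.47 and 9.17 in Jak2WT dKO, and at 64.0 and 53.0 against 17.3 and 12.7 in Jak2V617F. Slc2a3, encoding GLUT3, was at 97.7 and 91.9 against 16.0 and 49.5 FPKM in Jak2WT and at 198 and 166 against 48.2 and 23.8 in Jak2V617F, with no overlap between the groups in either background. Its Jak2WT difference did not pass the threshold (-1.71 on the log2 scale, limma adjusted p = 0.0612), but did with the same summed FPKM in each library (-1.80, 0.0498), by voom on recovered reads (-1.79, 0.0199) and without Jak2WT dKO clone 3 (-2.49, 0.0358). Its Jak2V617F difference passed (-2.39, limma adjusted p = 0.0115), a call lost with no filter (0.0557) and without Jak2V617F GLUT1/3 WT clone 1 (0.0602) or dKO clone 3 (0.0539). Reads on genes ranged from 16846011 to 48884329 per library. The cells are labelled as myeloblast-like, but only 2 of 9 myeloblast markers, Prtn3 and Spi1, reached 1 FPKM in any library, Mpo and Elane stayed below it and Cebpa was listed at 0 throughout. The summed FPKM of 9 erythroid markers was 94.0 to 112 in Jak2WT GLUT1/3 WT, 246 to 291 in Jak2WT dKO, 553 to 910 in Jak2V617F GLUT1/3 WT and 2582 to 4679 in Jak2V617F dKO. In Jak2V617F dKO clones 1 and 3, Hba-a1 was at 2007 and 993 and Hbb-bs at 2209 and 1437 FPKM, so globin genes carried most of that group's sum. The summed FPKM of 7 mast cell markers was 51.3 to 102 in the 4 Jak2WT libraries and 0.338 to 2.12 in the 4 Jak2V617F libraries, with Cpa3 alone reaching 1 FPKM and Tpsab1 and Tpsb2 at 0, and that of 5 lymphoid markers stayed at or below 0.708, with Cd4 and Cd8a at 0. The erythroid and mast cell markers moved with groups compared below, and their part in the enzyme results was not tested.

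Glutamine enters cells as a source of both carbon and nitrogen. Its amide nitrogen is used by asparagine synthetase (Asns), its amino nitrogen is passed on from glutamate by aspartate and alanine aminotransferases (Got1, Got2, Gpt2), and the carbon skeleton of glutamate enters the tricarboxylic acid cycle as 2-oxoglutarate through these enzymes or through glutamate dehydrogenase (Glud1). Glutamate is also the start of proline synthesis, in which pyrroline-5-carboxylate synthase (Aldh18a1) makes the intermediate that pyrroline-5-carboxylate reductase (Pycr1) turns into proline, and glutamine synthetase (Glul) runs the route backwards from glutamate to glutamine. Asns is a textbook target of ATF4, the transcription factor induced when amino acids are short or the endoplasmic reticulum is stressed, which binds CARE elements with C/EBP partners.

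The promoters of the 8 genes were searched for 3 motifs, those of ATF4, MYC and HIF-1, factors known to act on genes of amino acid and glucose metabolism. The windows were RefSeq promoters of 300 bases, from 250 before to 50 after each gene's start (build GRCm38.p6), and each matched GRCm39, the build of the expression files, at 1 place. CARE (TGATGNAA, either strand) was found in 3 of the 8 windows, those of Asns, Pycr1 and Got1, and in 3.97% of the 32851 windows of the table. The E-box bound by MYC (CACGTG) was found in the Aldh18a1 window alone among the 8 and in 7.15% of all windows. The HRE core bound by HIF-1 (ACGTG, either strand) was found in the windows of Asns and Aldh18a1 and in 19.6% of all windows, and in Aldh18a1 it lies inside the E-box. None of the 3 motifs was present in these windows of Glul, Glud1, Got2 and Gpt2. The stretches with the CARE matches and the E-box are printed 5′ to 3′ along each gene's strand, with the motif in capitals.
Asns: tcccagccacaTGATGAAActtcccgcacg
Pycr1: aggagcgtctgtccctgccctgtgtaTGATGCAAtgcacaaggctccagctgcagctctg
Got1: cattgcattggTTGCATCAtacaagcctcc
Aldh18a1: gagggggccgcCACGTGgagcgtgggcg
In GRCm39 the Asns stretch is chr6:7693214-7693243 on the minus strand, with its CARE 23 to 16 bases before the RefSeq start, and GENCODE places it inside an exon of longer Asns transcripts and of 1700012J15Rik on the other strand. The Pycr1 stretch is chr11:120534644-120534703 (minus strand), with its CARE 103 to 96 bases before the start and no annotated exon. The Got1 stretch is chr19:43513128-43513157 (minus strand), where the CARE is in the opposite orientation 102 to 95 bases before the start and inside an exon of a longer Got1 transcript. The Aldh18a1 stretch is chr19:40576950-40576977 (minus strand), with the E-box 59 to 54 bases before the start and inside an exon of Gm27042 on the other strand. A match of letters is a description of the window and not a bound site.

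The 8 enzymes were all expressed, at mean levels over the libraries from 3.27 FPKM for Pycr1 to 82.1 FPKM for Asns, and all 8 passed the expression filter (1 FPKM or more in 2 or more libraries). The rarest, Pycr1, rested on 205 to 737 reads a library and the others on at least 1176. Pseudogenes and relatives that could share reads were low, with Glud-ps at up to 0.586, Got2-ps1 at up to 0.542 and Glns-ps1, a copy of Glul, at up to 0.206 FPKM.

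Asns, which makes asparagine from aspartate and glutamine, lies on chromosome 6 (7675169 to 7693254, minus strand). Its level was 72.6 and 73.0 FPKM in clones 1 and 3 of Jak2WT GLUT1/3 WT, 72.9 and 65.9 in Jak2WT dKO, 125 and 142 in Jak2V617F GLUT1/3 WT and 47.6 and 57.6 in Jak2V617F dKO. The Jak2V617F GLUT1/3 WT clones were the highest and the Jak2V617F dKO clones the lowest, while the 2 Jak2WT groups overlapped.

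Aldh18a1, on chromosome 19 (40538701 to 40576907, minus strand), carries out the committed steps from glutamate towards proline and ornithine. It was at 59.8 and 61.7 FPKM in Jak2WT GLUT1/3 WT, 52.3 and 52.1 in Jak2WT dKO, 81.7 and 97.4 in Jak2V617F GLUT1/3 WT and 47.1 and 49.0 in Jak2V617F dKO. No groups overlapped, and the order was Jak2V617F GLUT1/3 WT, Jak2WT GLUT1/3 WT, Jak2WT dKO and Jak2V617F dKO from highest to lowest. Pycr1, a mitochondrial enzyme of the last step to proline on chromosome 11 (120526538 to 120534595, minus strand), was at 3.18 and 3.00 FPKM in Jak2WT GLUT1/3 WT, 2.43 and 2.08 in Jak2WT dKO, 4.92 and 6.28 in Jak2V617F GLUT1/3 WT and 1.89 and 2.36 in Jak2V617F dKO. Its 2 dKO groups overlapped and lay below both GLUT1/3 WT groups.

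Gpt2, the mitochondrial alanine aminotransferase on chromosome 8 (86219205 to 86254189, plus strand), joins pyruvate and glutamate to alanine and 2-oxoglutarate. It was at 24.4 and 23.6 FPKM in Jak2WT GLUT1/3 WT, 14.0 and 12.9 in Jak2WT dKO, 26.7 and 34.3 in Jak2V617F GLUT1/3 WT and 7.14 and 8.26 in Jak2V617F dKO. The 4 groups did not overlap, and it had the widest range of the 8 genes, with a 3.96-fold span between the highest and lowest group means.

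Got1 and Got2 are the cytosolic and mitochondrial aspartate aminotransferases, which work together in the malate-aspartate shuttle. Got1 (chromosome 19, 43488191 to 43513044, minus strand) was at 35.9 and 35.8 FPKM in Jak2WT GLUT1/3 WT, 30.7 and 33.3 in Jak2WT dKO, 38.8 and 39.3 in Jak2V617F GLUT1/3 WT and 23.9 and 28.0 in Jak2V617F dKO. Its groups did not overlap, and Jak2V617F dKO was the lowest. Got2 (chromosome 8, 96590762 to 96615175, minus strand) was at 39.1 and 44.9 FPKM in Jak2WT GLUT1/3 WT, 34.0 and 38.3 in Jak2WT dKO, 36.3 and 30.5 in Jak2V617F GLUT1/3 WT and 33.1 and 32.2 in Jak2V617F dKO. The Jak2V617F GLUT1/3 WT clones of Got2 overlapped both dKO groups, and its 1.29-fold span was the narrowest of the 8.

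Glul, which joins ammonia to glutamate to make glutamine, lies on chromosome 1 (153775690 to 153785469, plus strand). It was at 22.4 and 21.8 FPKM in Jak2WT GLUT1/3 WT, 23.9 and 21.8 in Jak2WT dKO, 18.0 and 15.5 in Jak2V617F GLUT1/3 WT and 20.4 and 20.7 in Jak2V617F dKO. Unlike Asns, Glul was lowest in the Jak2V617F GLUT1/3 WT clones, and its Jak2WT groups overlapped. Glud1, the mitochondrial enzyme that releases ammonia from glutamate (chromosome 14, 34032684 to 34067222, plus strand), was at 66.1 and 66.8 FPKM in Jak2WT GLUT1/3 WT, 75.0 and 75.6 in Jak2WT dKO, 61.1 and 59.0 in Jak2V617F GLUT1/3 WT and 49.5 and 57.4 in Jak2V617F dKO. All 4 Jak2V617F libraries lay below all 4 Jak2WT libraries.

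**Figure D1:**
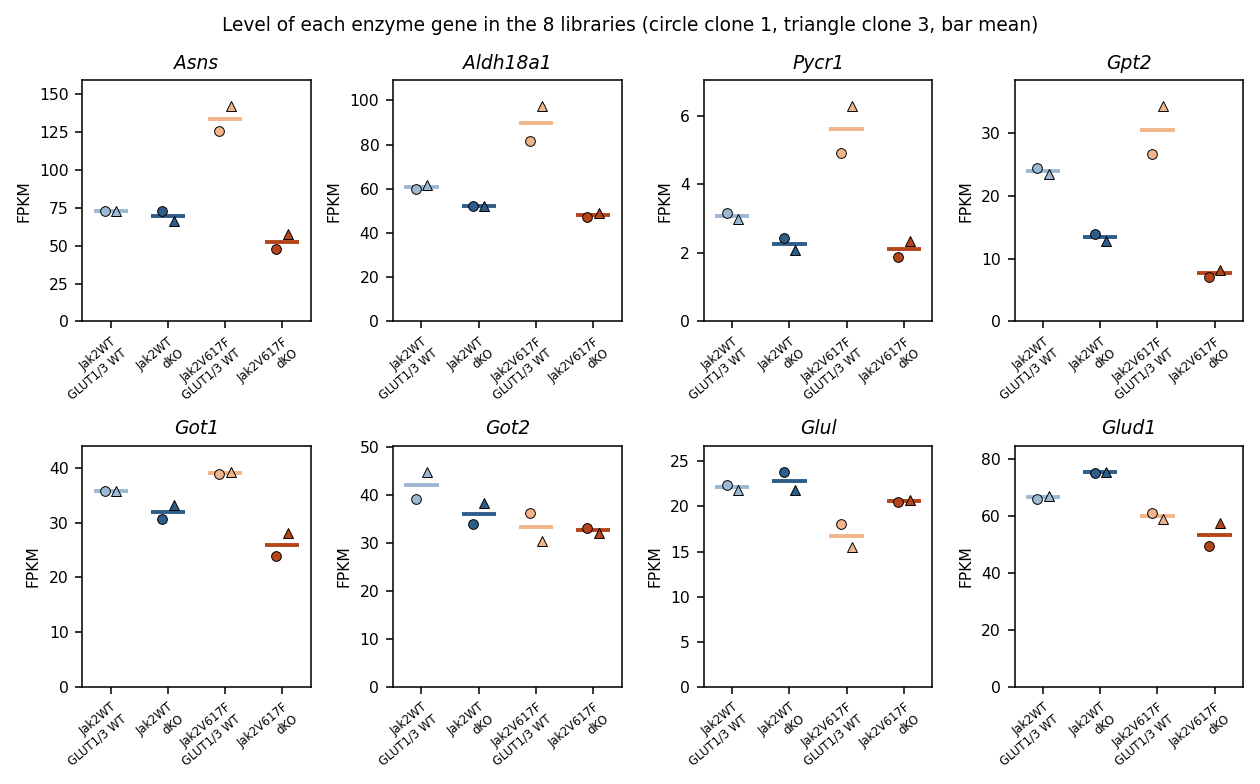
FPKM of each enzyme gene (y axis, from 0) in the 4 groups (x axis), with a circle for clone 1, a triangle for clone 3 and a bar at the mean. Asns, Aldh18a1, Pycr1 and Gpt2 were highest in Jak2V617F GLUT1/3 WT, where Asns reached 142 FPKM, and Glul was lowest there, at 15.5 FPKM.

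Jak2V617F cells without the transporters had less transcript of Gpt2, Asns, Pycr1, Aldh18a1 and Got1 than Jak2V617F cells with them. Pycr3, a reductase of the same step as Pycr1 and not among the 8, had means of 10.3 FPKM with them and 14.3 without. Of the 8 genes 5 fell and 0 rose, where 16.2% of the 11818 genes tested had passed as lower and 13.7% as higher. With libraries scaled to the same summed FPKM, the split over all genes turned from 1614 higher and 1919 lower to 2192 higher and 1452 lower, and the same 5 enzymes fell. Gpt2 fell to 0.252 times its GLUT1/3 WT mean, a difference of -1.85 ± 0.13 in log2(FPKM + 1). Its 95% interval was -2.15 to -1.55 and its limma adjusted p 0.00038. Here and below, ± is limma's SE, which rests on the spread within all 4 groups (2 clones each) and on that of other genes. Asns fell to 0.394 times (-1.33 ± 0.11, limma adjusted p = 0.00055). Pycr1 fell to 0.379 times (-1.08 ± 0.14, limma adjusted p = 0.0018), where the added 1 FPKM makes the log2 difference smaller than the ratio of the levels. Aldh18a1 fell to 0.536 times (-0.88 ± 0.096) and Got1 to 0.665 times (-0.58 ± 0.094), at limma adjusted p of 0.0011 and 0.0046. These 5 calls held under all 16 alternatives, with Asns between -1.47 and -1.20 and Gpt2 between -2.03 and -1.67.

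The other 3 enzymes did not pass the threshold in Jak2V617F cells. Glul was 0.28 ± 0.092 higher in log2(FPKM + 1) with no overlap of the clones (limma adjusted p = 0.0545), and it passed with each library scaled to the same summed FPKM (0.37, limma adjusted p = 0.0097), by median ratio scaling (0.0294), by voom on recovered reads (0.00791) and without GLUT1/3 WT clone 1 (0.0394). Glud1 was at -0.17 (95% interval -0.37 to 0.037) and Got2 at -0.03 (-0.30 to 0.24), so of the aspartate aminotransferases the cytosolic one fell and the mitochondrial one did not pass. The sign of Got2 turned under the same 4 alternatives, with values of 0.0019 to 0.094. The median of the 8 differences was -0.73, against -0.019 over all genes tested. In bulk libraries, fewer cells of a kind and less RNA per cell cannot be told apart. Of 7 tested erythroid markers 5 rose and 1 fell in this comparison (553 to 910 summed FPKM in GLUT1/3 WT and 2582 to 4679 in dKO), and their part in it was not tested.

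In Jak2WT cells without the transporters, only Gpt2 passed the threshold. Of the 8 genes 1 fell and 0 rose, where 6.06% of genes tested were lower and 7.62% higher (901 higher and 716 lower, against 706 and 1378 with libraries scaled to the same summed FPKM). Gpt2 fell to 0.560 times its GLUT1/3 WT mean (-0.79 ± 0.13, 95% interval -1.09 to -0.49, limma adjusted p = 0.012), and this call was lost without any 1 of the 4 Jak2WT libraries (limma adjusted p of 0.0601 to 0.0836, values of -0.85 to -0.74). Asns was at -0.07 (95% interval -0.34 to 0.20), so a fall as large as that in Jak2V617F lies outside its interval, and its sign turned without dKO clone 3 (0.0028). Pycr1 was at -0.33 (95% interval -0.65 to -0.014, limma adjusted p = 0.143) and Aldh18a1 at -0.21 (-0.44 to 0.01, 0.174), and the groups of neither gene overlapped. Got1 (-0.16), Got2 (-0.21), Glud1 (0.18) and Glul (0.04, with a sign that turned when libraries were scaled to the same summed FPKM, by voom and without dKO clone 1) did not pass either. The median of the 8 differences was -0.18, against 0.0082 over all genes tested. Of the 7 erythroid markers 2 rose here (94.0 to 112 summed FPKM in GLUT1/3 WT and 246 to 291 in dKO), and their part was not tested.

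The 2 responses were compared directly by the interaction, the dKO effect in Jak2V617F minus that in Jak2WT. Of the 8 genes 3 were lower and 0 higher, where 5.91% of genes tested were lower and 4.72% higher (558 higher and 698 lower, against 1177 and 393 with libraries scaled to the same summed FPKM). For Asns, the synthetase of asparagine, the difference of effects was -1.26 ± 0.16 (95% interval -1.64 to -0.88, limma adjusted p = 0.010). For Gpt2 it was -1.06 ± 0.18 (-1.48 to -0.63, 0.018) and for Aldh18a1 -0.67 ± 0.14 (-0.98 to -0.35, 0.028). Pycr1 was at -0.74 ± 0.19 (-1.19 to -0.30, limma adjusted p = 0.0503), and it passed with a filter on the mean FPKM (0.0487) and without Jak2V617F dKO clone 3 (0.0468). Got1 (-0.42, 0.0855) and Glud1 (-0.35, 0.115) were lower without passing, and Got2 (0.18, 0.486) and Glul (0.24, 0.258) higher without passing, though Glul passed when libraries were scaled to the same summed FPKM (0.42, limma adjusted p = 0.0405). The count of lower genes went to 0 in each of 3 fits that left out 1 Jak2WT library, GLUT1/3 WT clone 1 or 3 or dKO clone 1, with Asns then at limma adjusted p of 0.0528 to 0.0600 and values of -1.27 to -1.19. The count was 5 without Jak2V617F dKO clone 3. Aldh18a1 did not pass with libraries scaled to the same summed FPKM (-0.48, limma adjusted p = 0.0927), nor did Aldh18a1 and Gpt2 with no filter on low values (0.0697 and 0.0633).

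With transport intact, Jak2V617F cells had more transcript of Asns, Aldh18a1 and Pycr1 and less of Glul than Jak2WT cells. Pycr3, which acts at the same step as Pycr1, had a mean of 10.3 FPKM in Jak2V617F and 14.1 in Jak2WT. Of the 8 genes 3 rose and 1 fell, where 15.3% of genes tested were higher and 14.9% lower (1812 higher and 1765 lower, against 1223 and 2930 with libraries scaled to the same summed FPKM). Asns was 1.83 times the Jak2WT mean (0.86 ± 0.11, 95% interval 0.60 to 1.13, limma adjusted p = 0.0024), Pycr1 1.81 times (0.68 ± 0.14, 0.0096) and Aldh18a1 1.47 times (0.55 ± 0.096, 0.0061). Pycr1 missed the threshold without Jak2WT GLUT1/3 WT clone 3 (limma adjusted p = 0.0614). Glul fell to 0.758 times (-0.38 ± 0.092, limma adjusted p = 0.019), a call that was lost without Jak2WT GLUT1/3 WT clone 1 or 3 or Jak2V617F GLUT1/3 WT clone 3 (0.0807 to 0.104). Gpt2 (0.32, limma adjusted p = 0.0945), Got1 (0.12), Got2 (-0.32, 0.0689) and Glud1 (-0.14) did not pass. Gpt2 and Got2 passed without Jak2V617F GLUT1/3 WT clone 1 (0.50, limma adjusted p = 0.0314, and -0.45, 0.0497). Scaling to the same summed FPKM moved the median of all genes to -0.12 here and to 0.12 in the interaction, and under it Got2 (-0.47, limma adjusted p = 0.0094) and Glud1 (-0.30, 0.0327) were also lower and the sign of Got1 turned (-0.027). The row of Jak2, which does not separate the transduced from the endogenous murine gene, differed as well, at 243 to 258 FPKM in Jak2WT and at 139 to 140 in Jak2V617F (limma adjusted p = 0.0012), as did the mast cell markers (78.4 to 95.1 against 0.620 to 0.673 summed FPKM) and the erythroid markers, and their part was not tested. This comparison and the loss of transporters in Jak2V617F share the 2 Jak2V617F GLUT1/3 WT libraries, so a high value there enters both with opposite sign.

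Between the backgrounds without transporters, Asns, Aldh18a1 and Pycr1 did not pass as higher in Jak2V617F. Of the 8 genes 0 were higher and 2 lower in Jak2V617F dKO than in Jak2WT dKO, where 7.12% of genes tested were higher and 9.96% lower. Gpt2 was at 0.573 times the Jak2WT dKO mean (-0.73 ± 0.13, limma adjusted p = 0.0099) and Glud1 at 0.710 times (-0.49 ± 0.088, 0.011). Both calls were lost without Jak2WT dKO clone 1 (limma adjusted p of 0.0742 and 0.0700), that of Glud1 also without Jak2WT dKO clone 3 (0.0654) and that of Gpt2 without Jak2V617F dKO clone 1 (0.0517). Asns was at -0.40 (95% interval -0.67 to -0.13, limma adjusted p = 0.0534) and Got1 at -0.29 (0.0733), and each passed without Jak2V617F dKO clone 3 (0.0266 and 0.0288). Aldh18a1 was at -0.12 (95% interval -0.34 to 0.11) and Pycr1 at -0.06 (-0.38 to 0.26), with a sign for Pycr1 that turned without either clone 1. Glul and Got2 were each at -0.14. Jak2 was at 218 to 244 FPKM in Jak2WT dKO and at 152 to 165 in Jak2V617F dKO, and the mast cell markers were at 51.3 to 102 against 0.338 to 2.12 and the erythroid markers at 246 to 291 against 2582 to 4679 summed FPKM, and their part was not tested.

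**Figure D2:**
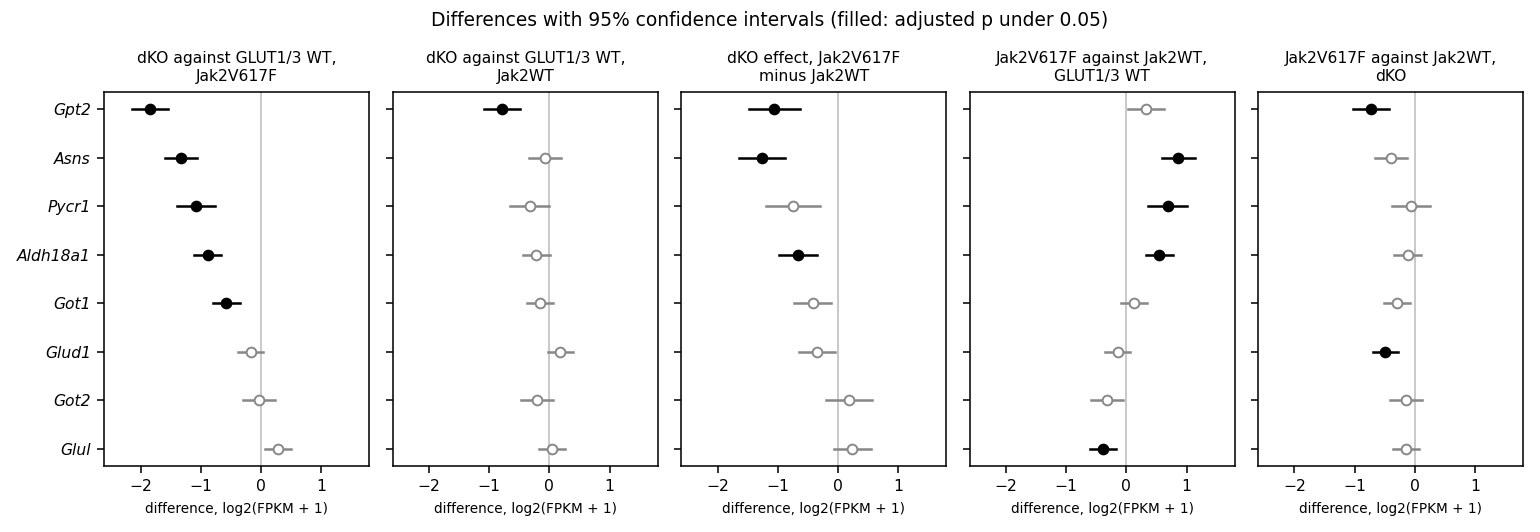
Differences in log2(FPKM + 1) (x axis) of the 8 enzyme genes (y axis) in the 5 comparisons, with 95% confidence intervals from limma and filled points where the adjusted p was under 0.05. Gpt2, Asns, Pycr1, Aldh18a1 and Got1 were lower after transporter loss in Jak2V617F, from -1.85 to -0.58, and Gpt2 alone passed in Jak2WT, at -0.79.

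How each gene varied over the 8 libraries was divided into background, transporter loss, their interaction and the spread between clones of a group, as shares of the sum of squares of log2(FPKM + 1). Gpt2 varied mostly with transporter loss (82.7%), as did Got1 (66.9%), Pycr1 (64.2%) and Aldh18a1 (63.3%). Asns divided between transporter loss (50.3%) and the interaction (40.9%). Glud1, Glul and Got2 varied mostly with background (70.7%, 55.1% and 50.2%), and for Glud1 transporter loss took 0.013%, since its difference had opposite signs in the 2 backgrounds. The spread between clones took 2.04% for Gpt2 and 29.0% for Got2, and its median over all genes tested was 16.9%, beside medians of 22.2% for transporter loss, 20.9% for background and 10.3% for the interaction. These shares describe the libraries and carry no test.

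**Figure D3:**
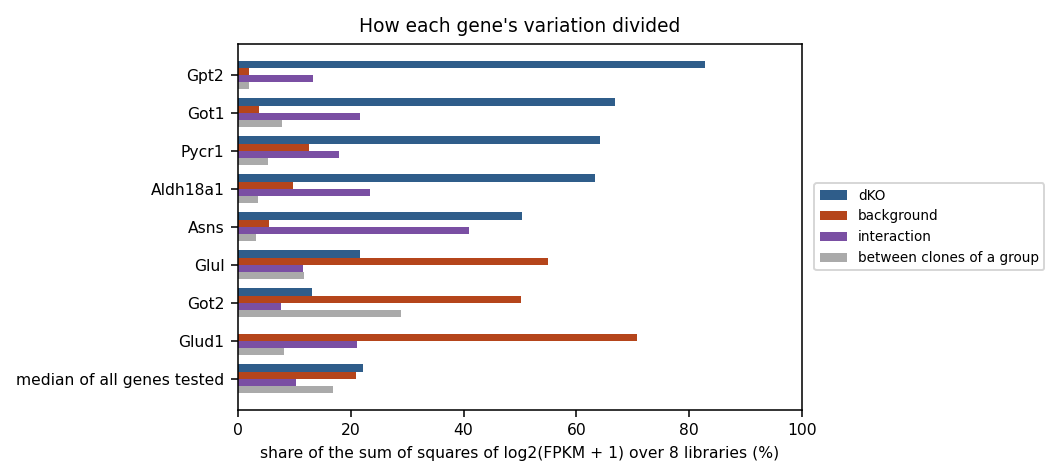
Share of the sum of squares of log2(FPKM + 1) over the 8 libraries (x axis, percent) taken by transporter loss, background, their interaction and the spread between clones of a group, for each enzyme gene and as the median of all genes tested. Gpt2, Got1, Pycr1 and Aldh18a1 have their longest bars for transporter loss, and Glul, Got2 and Glud1 for background.

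Ratios of related enzymes within a library do not depend on how libraries are scaled. Pycr1 was set against Pycr3, the cytosolic reductase of the same step. The log2 ratio of Pycr1 to Pycr3 was -2.07 and -2.31 in Jak2WT GLUT1/3 WT, -2.73 and -2.82 in Jak2WT dKO, -1.13 and -0.64 in Jak2V617F GLUT1/3 WT and -2.76 and -2.74 in Jak2V617F dKO. Pycr1 was thus below Pycr3 in every library, and closest to it in the Jak2V617F GLUT1/3 WT clones. Pycr3 itself rose in Jak2V617F dKO (0.43, limma adjusted p = 0.029) and was lower in Jak2V617F than in Jak2WT with transport intact (-0.42, 0.031). The former call was lost with no filter (0.0757), with only the groups compared (0.093) and without Jak2V617F GLUT1/3 WT clone 1 or 3 or dKO clone 3 (0.0596 to 0.117), and the latter with no filter (0.0798) and without any 1 of the 4 GLUT1/3 WT libraries (0.061 to 0.168).

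Gpt2 exceeded its cytosolic counterpart Gpt in all libraries, but by less after transporter loss. The log2 ratio of Gpt2 to Gpt was 4.65 and 4.28 in Jak2WT GLUT1/3 WT and 2.94 and 2.58 in Jak2WT dKO, and 5.91 and 5.75 against 3.47 and 3.03 in Jak2V617F. Gpt itself was at only 0.445 to 2.16 FPKM. The mitochondrial to cytosolic ratio of aspartate aminotransferase, Got2 to Got1, was below 0 on the log2 scale in the Jak2V617F GLUT1/3 WT clones alone (-0.097 and -0.37), and between 0.13 and 0.47 in the other 6 libraries.

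Asns was set against Asrgl1, an enzyme that breaks down asparagine. Their log2 ratio was 2.10 and 2.46 in Jak2V617F GLUT1/3 WT and between 1.39 and 1.62 elsewhere, while Aspg, another asparaginase, was listed at 0 in every library.

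**Figure D4:**
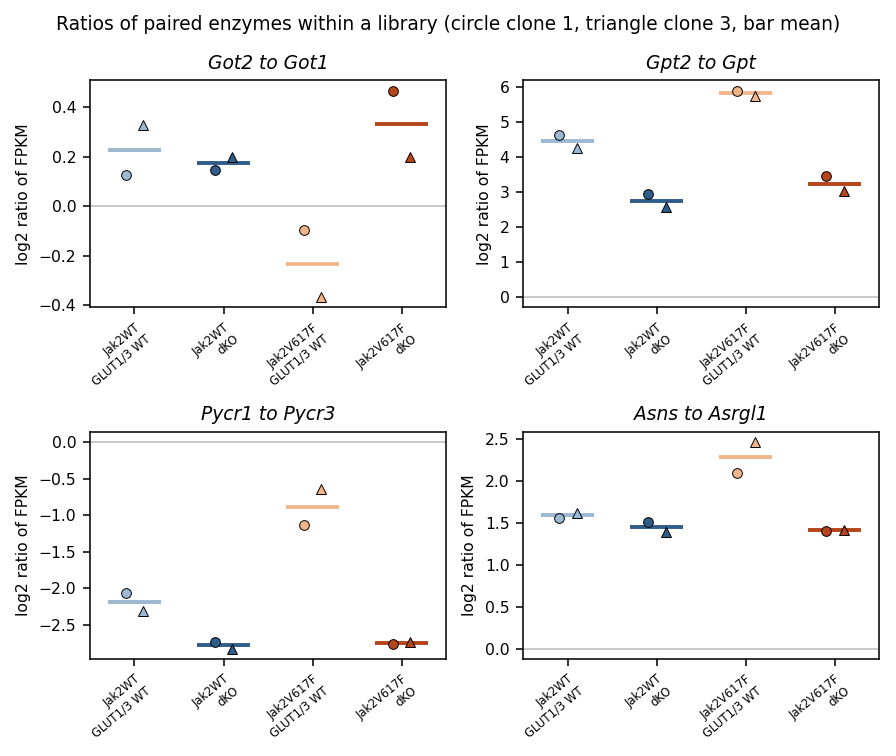
Log2 ratio of the FPKM of related enzymes within a library (y axis) in the 4 groups (x axis), with a circle for clone 1, a triangle for clone 3 and a bar at the mean. Jak2V617F GLUT1/3 WT stands apart from the other groups in each panel, with Pycr1 to Pycr3 at -1.13 and -0.64, and the Gpt2 to Gpt ratio was lower in both dKO groups.

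Neighbouring reactions, described from lists of related genes, had genes that rose as well as genes that fell. Besides the 8 enzymes, 2 of 7 tested genes of glutamine and glutamate turnover rose and 0 fell in Jak2V617F dKO (median 0.12), 2 of 9 glutamine amidotransferases rose and 1 fell (median 0.072), and 2 of 6 other aminotransferases rose and 1 fell (median 0.18). For proline and ornithine, 3 of 6 rose and 1 fell (median 0.33). The genes that rose included Oat, which links ornithine with the proline pathway (0.51, limma adjusted p = 0.013), Prodh, which degrades proline (0.69, 0.0051), and Pfas, a glutamine-using enzyme of purine synthesis (0.78, 0.0014). P4ha1, which hydroxylates prolines in collagen and is not an enzyme of proline supply, fell from 83.3 and 72.4 to 28.0 and 24.2 FPKM (-1.54, limma adjusted p = 0.00036). Of 8 asparagine and aspartate genes 3 rose and 2 fell (median -0.013), with Ass1, which uses aspartate for argininosuccinate, at 1.71 and Nars, which charges tRNA with asparagine, at -1.07. Of 6 malate-aspartate shuttle and glutamate carrier genes, Slc25a22 rose (0.64) and Slc25a12 fell (-0.47). Over all genes tested 13.7% were higher and 16.2% lower. Some genes stand in several of these lists, so that Oat is counted among the genes that rose for turnover, aminotransferases and proline and ornithine, and Cad among those for amidotransferases and for asparagine and aspartate. Bcat2, the other aminotransferase that rose (0.32, limma adjusted p = 0.0327), lost its call with no filter, with only the groups compared and without any 1 library other than Jak2V617F dKO clone 3 (0.0552 to 0.121). Without Jak2V617F GLUT1/3 WT clone 3 the genes that rose were 0 for turnover, 0 for aminotransferases, 1 for amidotransferases, 1 for proline and ornithine and 1 for asparagine and aspartate, with Oat at a limma adjusted p of 0.0597, and with only the groups compared they were 0, 0, 2, 1 and 2 in the same order. Asparagine and aspartate also had 1 gene that rose without either Jak2V617F dKO clone, and amidotransferases 1 without any 1 of the Jak2V617F libraries. Among the genes that fell, the call of Ctps2 (the 1 amidotransferase) was lost with no filter, the same summed FPKM, voom, only the groups compared and without any 1 library other than Jak2V617F GLUT1/3 WT clone 3 and dKO clone 1 (limma adjusted p of 0.0555 to 0.182), that of Asrgl1 with only the groups compared (0.0823) and without Jak2V617F GLUT1/3 WT clone 1 (0.0853) or dKO clone 1 (0.0624), and that of Slc25a12 with only the groups compared (0.0596). Prodh, Pfas, P4ha1, Ass1 and Nars kept their calls under all alternatives. The median of the asparagine and aspartate list was above 0 under each of 3 other scalings (0.016 to 0.083).

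In Jak2WT dKO the counts of these lists were 2 of 7 higher for turnover, 1 of 9 for amidotransferases, 2 of 6 for aminotransferases, 1 of 6 for proline and ornithine, 3 of 8 for asparagine and aspartate and 1 of 6 for the shuttle, and Slc25a12 (-0.71) was the 1 gene that fell. Over all genes tested 7.62% were higher and 6.06% lower in this comparison. Leaving out 1 Jak2WT library at a time took the counts of higher genes to 0, except for asparagine and aspartate (1 gene each time) and the shuttle (0 to 1), and the fall of Slc25a12 was lost without Jak2WT GLUT1/3 WT clone 1 or 3 or dKO clone 1 (limma adjusted p of 0.0529 to 0.0578). Oat (0.71, limma adjusted p = 0.010), Ass1 (2.39, 0.00053) and Slc25a22 (0.72, 0.0072) rose here as in Jak2V617F, and of the 3 Ass1 alone kept its call without each of the Jak2WT libraries. The rise of Ass1 was smaller in Jak2V617F than in Jak2WT, with an interaction of -0.68 (limma adjusted p = 0.037). Oat was also lower in Jak2V617F than in Jak2WT in both states (-0.52 with transport intact and -0.71 in dKO), and so was the glutaminase Gls2 (-0.95 and -0.75), which was at most 3.48 FPKM. The former call of Oat was lost without Jak2WT GLUT1/3 WT clone 3 (limma adjusted p = 0.0852) or Jak2V617F GLUT1/3 WT clone 3 (0.056), and the latter of Gls2 without either Jak2WT dKO clone (0.0626 and 0.0629).

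The transporters that bring glutamine and its exchange partners across the plasma membrane, and ATF4 with its known targets, were mostly lower in Jak2V617F dKO, as Asns was. Of 7 transporters tested 5 fell and 0 rose in Jak2V617F dKO (median -0.85), and in Jak2WT dKO 0 fell and 2 rose (median 0.17), where 16.2% of all genes tested were lower and 13.7% higher in Jak2V617F dKO and 6.06% lower and 7.62% higher in Jak2WT dKO. Among them the cystine-glutamate exchanger Slc7a11 fell by 1.85 on the log2 scale, and the glutamine carrier Slc38a2 changed by -0.82 in Jak2V617F and 0.60 in Jak2WT (interaction -1.42, limma adjusted p = 0.0087, and 0.0531 without Jak2WT GLUT1/3 WT clone 3). Slc1a5, a main glutamine importer, was at 0.16 in Jak2V617F (limma adjusted p = 0.164, but higher by voom at 0.26 and 0.0442) and rose in Jak2WT (0.51, 0.011), a call lost without any 1 of the Jak2WT libraries (0.0619 to 0.0933). Of 17 tested genes of the ATF4 list 14 fell and 0 rose in Jak2V617F dKO (median -0.86), against 1 lower and 3 higher in Jak2WT dKO (median 0.16), and 11 were lower and 0 higher in the interaction (median -0.97), where 5.91% of all genes tested were lower and 4.72% higher. The 14 were 13 to 14 when any 1 library was left out, whereas the 11 were 0 without Jak2WT GLUT1/3 WT clone 3 and 2 without Jak2WT GLUT1/3 WT clone 1 or dKO clone 1, with medians of -0.98 to -0.83. The 3 that rose in Jak2WT dKO were 0 without GLUT1/3 WT clone 1 or 3 or dKO clone 1 and 1 without dKO clone 3, and the 2 transporters were 0 without any 1 of the 4 Jak2WT libraries. Slc7a11, Slc7a5 and Slc3a2 are in both lists, and Psat1 is in the ATF4 list and is the aminotransferase that fell. Atf4 itself was at 177 and 182 FPKM in Jak2V617F GLUT1/3 WT and 107 and 115 in dKO (-0.69, limma adjusted p = 0.0013), and in Jak2WT at 106 and 111 and at 134 and 133 (0.30, 0.046). The Jak2WT call of Atf4 was lost with the same summed FPKM (0.20, limma adjusted p = 0.116), by voom (0.0615), with a replicate block (0.0682), with no filter (0.077), without any 1 of the Jak2WT libraries (0.155 to 0.243) and without either Jak2V617F GLUT1/3 WT clone (0.0556). Atf5, another stress-response factor, was also higher in Jak2WT dKO (1.27, limma adjusted p = 0.011, lost without Jak2WT GLUT1/3 WT clone 1 or 3 or dKO clone 1 at 0.0669 to 0.0769), beside -0.07 for Asns in the same libraries.

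With transport intact, 11 of the 17 ATF4 list genes and 4 of the 7 transporters were higher in Jak2V617F than in Jak2WT and 0 lower in either list, with medians of 0.59 and 0.74 beside 0.0076 over all genes tested, of which 15.3% were higher and 14.9% lower. In the dKO groups 9 of the ATF4 list were lower and 2 higher, and 3 transporters were lower and 0 higher (9.96% of all genes tested were lower and 7.12% higher), but without Jak2WT dKO clone 1 or 3 only 1 of the ATF4 list and 0 transporters were lower. Myc, whose product is known to bind E-box motifs, was higher in Jak2V617F with transport intact (0.60, limma adjusted p = 0.0047) and was at 0.25 in Jak2WT dKO (0.126). It fell in Jak2V617F dKO (-0.47, limma adjusted p = 0.012), but not past the threshold with only the groups compared in the fit (0.0694) or without Jak2V617F GLUT1/3 WT clone 1 (0.0566). The medians and counts of these lists describe them beside all genes tested and were given no test of their own.

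**Figure D5:**
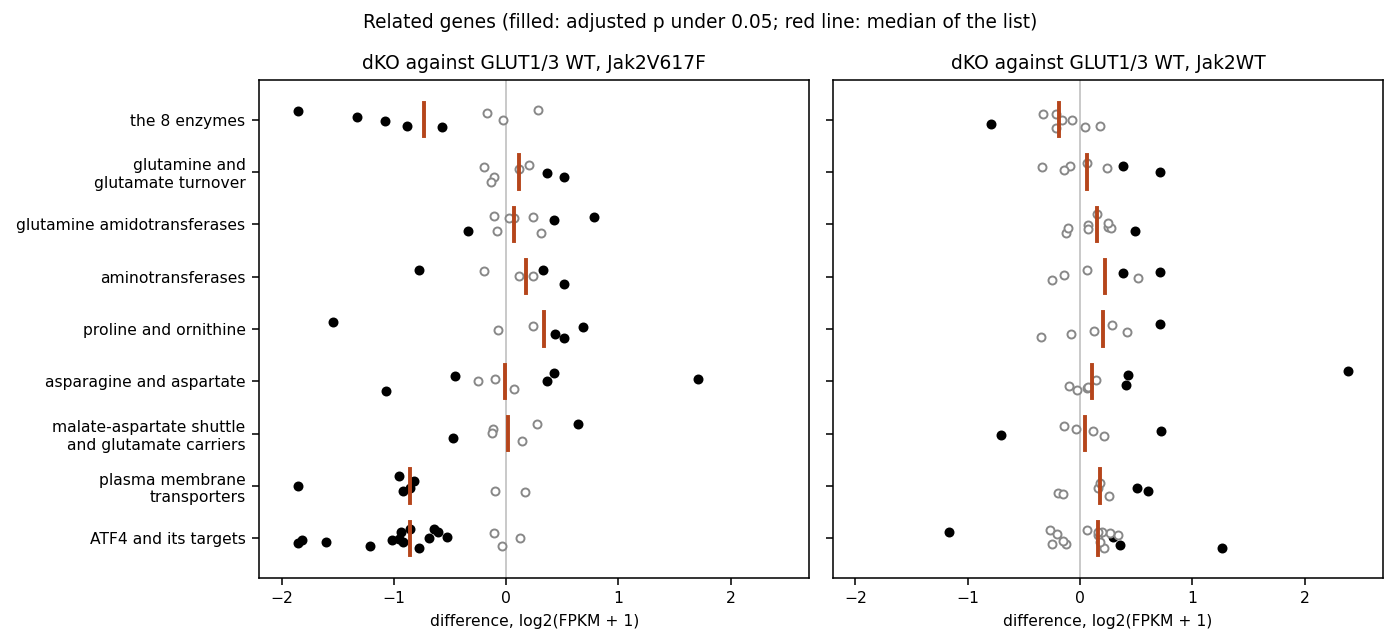
Difference in log2(FPKM + 1) after transporter loss (x axis) in Jak2V617F (left) and Jak2WT (right) for each tested gene of the 8 enzymes and of 8 lists of related genes (y axis), filled where the adjusted p was under 0.05, with a red line at the list's median. In Jak2V617F the 8 enzymes, the plasma membrane transporters and the ATF4 list have medians of -0.73, -0.85 and -0.86, and the other lists lie between -0.013 and 0.33.

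The genes most like each enzyme were sought among all genes tested, as those with the smallest root mean square difference of centred log2(FPKM + 1) over the 8 libraries. For Asns they were Nars (0.10) and Sars (0.12), which charge tRNAs with asparagine and serine, and the cytokine receptor chain Il2rb (0.12). Nars had group means of 141, 131, 227 and 108 FPKM in Jak2WT GLUT1/3 WT, Jak2WT dKO, Jak2V617F GLUT1/3 WT and Jak2V617F dKO. For Pycr1 they were Iars (0.099), which charges tRNA with isoleucine, Inpp4b (0.11) and Polr1c (0.11), a subunit of RNA polymerases I and III. Gpt2 had no gene closer than the phosphatase Ptprc (0.14), followed by Pgm1 (0.16), which interconverts glucose phosphates, and Pgam1-ps2 (0.18).

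For Aldh18a1 the likest genes were Mzt1 (0.074), Pex5 (0.079) and Zdhhc17 (0.087), for Got1 Dhx36 (0.050), Fbh1 (0.055) and Ndfip1 (0.058), and for Glul Zc3hav1l (0.027), Zdhhc18 (0.035) and Csnk1g2 (0.053). For Glud1 they were Smim30 (0.055), Cyrib (0.055) and Bccip (0.056), and for Got2 Ankrd52 (0.055), Ywhaq-ps3 (0.056) and Hdac1 (0.056). Genes that vary little over the libraries lie close to many others by this measure, so the distances are smallest for Glul, Glud1, Got1 and Got2. Among the 8 enzymes themselves the closest pair was Aldh18a1 and Pycr1 (0.11), consecutive enzymes of proline synthesis, then Asns and Pycr1 (0.14), and the farthest was Glul and Gpt2 (0.82).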

How the data were processed

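RNA-seq of 8 libraries (32D cells, 4 groups of 2 clones) was analysed. The authors trimmed reads with fastp 1.0.1, aligned them to GRCm39 with HISAT2 2.2.1, counted them with featureCounts 2.0.6 and deposited FPKM per gene, as the labels and the submitters' processing notes state. The annotation version and strand setting are not given in the sources used here, so reads of overlapping antisense genes may not have been told apart. FPKM multiplied by gene length was a whole multiple of 1 step for 100% of values in each library (tolerance 0.01), which gave the reads recovered and their depth of 16846011 to 48884329.

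Groups came from the labels. Genes reaching an FPKM of 1 in 2 or more libraries (11818 of 56748) were fitted with limma 3.58.1 (R 4.3.3) on log2(FPKM + 1). The fit had a mean per group, trend, 4 residual and 3.34 prior degrees of freedom, and Benjamini-Hochberg adjustment over all genes tested. A fold change on this scale understates that of low genes. The scripts were tested on simulated data. Alternatives were a pseudocount of 0.1, other filters, 2 scalings of libraries, voom on recovered reads, only the groups compared, a replicate block and leaving out each library in turn. The 8 members and the lists of related genes were chosen with earlier results of these data known. The clone numbers name separate clones and did not pair samples.

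Besides the members, the text names from each list and comparison up to 4 genes of largest change past the threshold whose clones did not overlap, with Atf4, Myc, Slc1a5, Slc2a1 and Slc2a3, and the 3 genes most like each member. A few others, named beside a ratio or a marker list, were chosen for that place. Pycr3 is listed as Pycrl. Some items of this rule and of the lists are not reported here. Promoter sequences were from RefSeq tables (GRCm38.p6), placed on GRCm39 by exact match, and exons were from GENCODE vM39.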

Additional observations from a re-analysis of the deposited data

Results flagged for a closer look

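The effect of transporter loss differed between the backgrounds by the interaction test for 3 of the 8 enzymes, as limma adjusted p under 0.05, where 5.91% of genes tested were lower and 4.72% higher. The 3 became 0 without Jak2WT GLUT1/3 WT clone 1 or 3 or Jak2WT dKO clone 1, and 1 with no filter. The dKO effect in Jak2V617F minus that in Jak2WT was -1.26 for Asns, which fell in Jak2V617F and was at -0.07 in Jak2WT. It was -1.06 for Gpt2, which fell in both backgrounds and further in Jak2V617F. It was -0.67 for Aldh18a1, at -0.88 in Jak2V617F and -0.21 in Jak2WT. All 4 groups enter each of these differences, and the high levels of the Jak2V617F GLUT1/3 WT clones (125 and 142 FPKM for Asns) weigh in them as much as the low levels of the Jak2V617F dKO clones (47.6 and 57.6).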

How the results depend on the processing

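Of 632 values of the 8 enzymes recomputed under 16 alternatives, 577 kept their direction and their side of the threshold, 26 lost a call, 18 gained one and 11 changed sign. The 5 falls in Jak2V617F dKO held throughout, as did the higher Asns (0.71 to 0.95) and Aldh18a1 (0.40 to 0.67) of Jak2V617F with transport intact. A fit without 1 library left a group with 1 clone, which was assumed to vary like the others.

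Counts of enzymes moved as follows. In Jak2V617F dKO, 1 was higher (Glul) with libraries scaled to the same summed FPKM, by median ratio scaling and by voom on recovered reads, and 1 was higher in the interaction (Glul) under the first and last of these. Between the backgrounds with transport intact, 3 were lower (Glul, Glud1, Got2) with the same summed FPKM and by voom and 2 (Glul, Got2) by median ratio scaling. With no filter on low values 1 was lower in the interaction (Asns). Leaving out 1 library at a time gave 0 to 1 higher in Jak2V617F dKO, 0 to 1 lower in Jak2WT dKO, 2 to 4 higher and 0 to 2 lower between the backgrounds with transport intact, 0 to 4 lower between them in dKO and 0 to 5 lower in the interaction. Got1 and Asns joined the lower genes in dKO, and Got1 and Pycr1 those of the interaction, without Jak2V617F dKO clone 3. The interaction call of Gpt2 was lost with no filter (limma adjusted p = 0.0633) and without Jak2WT GLUT1/3 WT clone 1 or 3 or dKO clone 1 (0.0686 to 0.0803), and that of Aldh18a1 with no filter (0.0697), with the same summed FPKM (-0.48, 0.0927) and without any 1 of the Jak2WT libraries or Jak2V617F dKO clone 1 (0.055 to 0.109). The cause of these changes was not tested.

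Signs that changed belonged to values that had not passed. With the same summed FPKM the difference in Jak2V617F dKO was 0.063 for Got2, in Jak2WT dKO -0.052 for Glul, and between the backgrounds with transport intact -0.027 for Got1 and -0.014 for Slc1a5. By voom these were 0.069 for Got2 and -0.024 for Glul, and by median ratio scaling 0.0019 for Got2. Leaving out 1 library moved Got2 in Jak2V617F dKO between -0.15 and 0.094, and in Jak2WT dKO Asns between -0.14 and 0.0028 and Glul between -0.018 and 0.106. Between the backgrounds in dKO it moved Pycr1 between -0.17 and 0.046, Myc between -0.24 and 0.0069 and Slc2a3 between -0.53 and 1.04. In the interaction Slc2a3 ranged from -1.46 to 0.10.

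Over all genes tested, fitting only the groups compared gave 764 higher and 853 lower in Jak2V617F dKO (1614 and 1919 in the fit of all groups) and 436 and 592 between the backgrounds in dKO (842 and 1177). With no filter the counts were 402 and 312 in Jak2WT dKO (901 and 716), 165 and 181 in the interaction (558 and 698) and 714 lower between the backgrounds in dKO. By voom they were 1587 lower in Jak2WT dKO, 2655 lower between the backgrounds with transport intact (1765), 1342 higher between them in dKO and 1321 higher in the interaction. Leaving out 1 library gave 2 to 502 higher and 3 to 754 lower in the interaction, and 74 to 1077 and 36 to 897 in Jak2WT dKO. A replicate block by clone number left every call of the 8 enzymes as it was, with 1486 genes higher and 1740 lower in Jak2V617F dKO and Asns at a limma adjusted p of 0.0185 in the interaction. Clones with the same number did not deviate together, with correlations from -0.254 to 0.152 between groups.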
